A study of Mus musculus with 24 samples.

Results

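Gastrocnemius muscle, the large calf muscle of the hind limb, was compared between congenic mice and C57BL/6J (B6) mice. The comparison took the samples titled muscle in each genotype, 3 congenic and 3 B6, which are 6 of the 24 samples of the series. The other 18 samples were whole brain, liver and epididymal white adipose tissue of the same genotypes, with 3 samples per genotype and tissue, and they serve here to estimate the spread and to ask whether a difference was larger in muscle. The congenic mice belong to the B6.S-2 strain, in which a distal part of chromosome 2 comes from SPRET/Ei, a strain of the wild species Mus spretus, and the rest of the genome from C57BL/6J. B6 mice carry the C57BL/6J sequence throughout. The labels give no zygosity, age or sex for a muscle sample, and the diets they mention, chow and high fat, are tied to no sample. The treatment field calls every sample congenic, B6 samples included, so genotype rests on the sample titles. The question set by the series title is which genes of the region could bear on body weight and fat mass.

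A congenic strain isolates the effect of one chromosome segment, and expression of the genes in that segment can be compared on an otherwise shared background. Skeletal muscle takes up much of the body's glucose and burns fat in its mitochondria, where the respiratory chain complexes are assembled from many subunits with the help of dedicated assembly factors. The array was a custom design that measures exons one at a time, and each exon value is the average brightness of a few short probes. A probe binds less well where the SPRET/Ei sequence differs from the sequence it was made for. Less RNA and a base difference under a probe cannot be told apart from a single exon value. For that reason exon features are given below beside the summary for the main genes, though not for every gene named. Which of them lies behind a change was not tested.

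The array held 341 genes, 333 of them on chromosome 2 between bases 121896708 and 167412296 in the coordinates of the deposited files, whose genome build is not given in the sources used here. Values are log2 of normalized intensity, a gene value combines all exon features of the gene, and a change is congenic minus B6 with the standard error (SE) of the limma fit. The threshold is a Benjamini-Hochberg adjusted p under 0.05 over all genes or all features. The median raw brightness was 1158, 2038 and 3571 on the B6 arrays and 1189, 916 and 1330 on the congenic arrays. All 6 were on one slide, in 3 well rows that each held 1 array of each genotype. The precision of every value is limited by 3 arrays per group. The muscle identity of the samples was clear from Tnnc2 and Mylk2. Tnnc2, fast skeletal troponin C, lay between 14.41 and 14.57 on the muscle arrays and between 9.39 and 9.78 on the adipose arrays. Mylk2, the skeletal muscle myosin light chain kinase, lay between 10.83 and 11.43 against 8.94 to 9.17. The muscle markers Jph2 and Neurl2 separated the tissues less. Jph2 lay between 10.54 and 11.02 against 10.09 to 10.37, and Neurl2 overlapped, at 10.56 to 10.93 against 10.34 to 10.79.

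Congenic replicate 3 stood apart from the other muscle arrays before any genotype comparison. Svs4, which encodes an abundant seminal vesicle secretory protein, read 12.89 there and at most 9.85 on the other 5. Svs5 read 11.41 against at most 8.50, Svs2 read 10.45 against at most 8.31, and Svs6 read 9.75 against at most 7.48. These 4 were the genes that lay more than 1 log2 unit above all other muscle arrays, and on each of the other 5 arrays the number of such genes was 0. The other measured members of the family, Svs3a and Svs3b, did not stand out. The summed level of the 6 measured seminal vesicle genes ran from 11.19 to 11.42 in B6, and was 11.37, 11.26 and 13.74 on the congenic arrays. Congenic replicate 3 and B6 replicate 3, both in well row A, were the 2 highest arrays for 5 of the 12 measured epididymis and testis genes (Cst11, Cst12, Defb20, Defb21 and Spint4), and for 27 of all 341 genes (7.92%). Defb20, a defensin, read 10.24 in B6 replicate 3 and 10.15 in congenic replicate 3, against 8.99 to 9.17 on the other 4 arrays. The other 7 of the 12 did not follow this order, and Defb22, for example, was highest in congenic replicate 2 at 10.18. On the adipose arrays Defb20 lay between 13.17 and 13.75. B2m, the light chain of MHC class I, was highest in B6 replicate 3, at 12.57. The summed level of the 12 measured epididymis and testis genes ran from 12.98 to 13.34 in B6 and from 13.04 to 13.27 in congenic muscle. In adipose tissue, on the same slide, congenic replicate 1 was the highest array for Svs4 (12.43), Svs5 (11.29), Svs2 (10.81) and Svs6 (9.78). The part of these signals, in either tissue, in the differences below was not tested. Each main result is given with and without congenic replicate 3 of muscle.

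**Figure D1:**
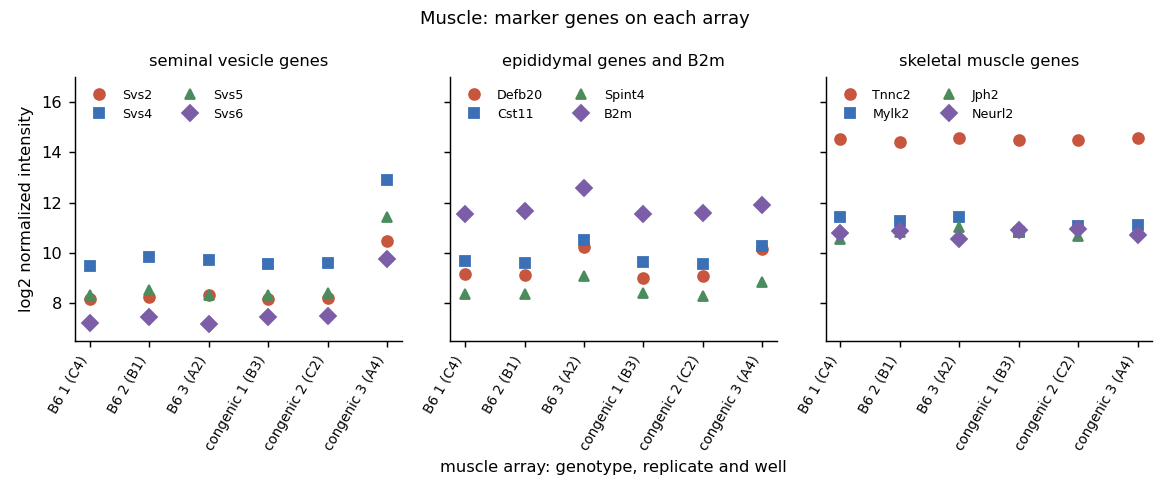
Log2 normalized intensity (y axis) of 4 seminal vesicle genes, 3 epididymal genes with B2m, and 4 skeletal muscle genes on each of the 6 muscle arrays (x axis, with the well). Svs4 reads 12.89 on congenic replicate 3 and at most 9.85 elsewhere, Defb20 is highest in the arrays of wells A2 and A4, and Tnnc2 stays between 14.41 and 14.57.

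In congenic muscle 2 of the 341 genes fell, 0.587% of those tested, and 0 rose. The 2 were Uqcc1, which encodes an assembly factor of mitochondrial respiratory complex III, and Serinc3, which encodes a membrane protein with many transmembrane segments of the serine incorporator family. Another 15 genes had an unadjusted p under 0.05 without passing the adjusted threshold. Together these make 17 genes or 4.99% of all genes, 11 lower (3.23%) and 6 higher (1.76%). The groups did not overlap in 74 genes, 21.7% of those tested, 35 lower (10.3%) and 39 higher (11.4%). Over all genes the median change was 0.01, and 149 genes (43.7%) were below 0. In an exact permutation test of 3 against 3 the smallest two-sided p is 0.1, so the tests rest on the limma fit across all genes.

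Both genes lie on the minus strand of chromosome 2. Their upstream sequence is shown to place the 2 genes that passed, and its part in the differences was not tested. The sequences are the 250 bases before the RefSeq start of each gene in GRCm38.p6, at chr2:163645144-163645393 for Serinc3 and chr2:155930311-155930560 for Uqcc1, 5′ to 3′ on the gene's strand. They are the C57BL/6J reference, and the SPRET/Ei sequence was not used here. The exon coordinates of the deposited files differ from GRCm38, so these positions cannot be set beside them. Capitals mark matches to CCAAT and GGGCGG on either strand.

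Serinc3: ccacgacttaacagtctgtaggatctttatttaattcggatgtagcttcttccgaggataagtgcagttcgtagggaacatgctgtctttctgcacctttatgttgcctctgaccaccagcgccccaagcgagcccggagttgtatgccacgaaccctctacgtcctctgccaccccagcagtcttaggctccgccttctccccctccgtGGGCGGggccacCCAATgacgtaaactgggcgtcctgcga

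Uqcc1: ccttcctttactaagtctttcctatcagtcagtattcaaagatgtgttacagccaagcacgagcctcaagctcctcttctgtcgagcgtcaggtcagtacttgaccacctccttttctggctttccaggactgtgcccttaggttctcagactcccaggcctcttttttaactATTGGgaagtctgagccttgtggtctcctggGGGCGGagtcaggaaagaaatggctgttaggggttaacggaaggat

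Each of these promoters held 1 CCAAT match, read on the forward strand in Serinc3 and on the reverse strand in Uqcc1, and 1 GGGCGG match. Of 32851 mouse promoters of the same length, 33.8% held CCAAT and 32.7% held GGGCGG on either strand. Neither window held TATAAA, present in 12.4% of all promoters, or CAGCTG, present in 13.0%. None of the matches overlapped another, and they describe the letters only.

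Uqcc1 read 9.87, 9.85 and 9.84 in the B6 arrays and 9.42, 9.30 and 9.29 in the congenic arrays. The B6 arrays lay within a few hundredths of each other and all 3 congenic arrays were lower. The change was -0.52 ± 0.08 (SE, n = 3 per group; limma adjusted p = 7.71e-04), a 1.43-fold lower level. Without congenic replicate 3 it was -0.49 (limma adjusted p = 0.00950), and in a fit of the 6 muscle arrays alone the limma adjusted p was 0.0119. Within well rows A, B and C the difference was -0.55, -0.43 and -0.57, and with well row as a block the limma adjusted p was 0.00295.

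The gene spans bases 155910243 to 155993612 in the files' coordinates, and the array measured 10 exon features of it through the transcript BC050884. All 10 features were lower in congenic muscle, against 47.4% of all features, and in 7 the groups did not overlap. Of all features, 9.75% were lower and 8.33% higher with no overlap. Changes ran from -0.20 at the first exon to -1.06 at the seventh, a 110-base exon. That exon read 9.74, 9.49 and 9.32 in B6 and 8.43, 8.22 and 8.72 in congenic muscle, and it was the feature of Uqcc1 that passed the threshold over all features (limma adjusted p = 0.0141). The last exon, 1633 bases long, was lower by less, at -0.37, and its groups overlapped. In the authors' deposited probe values, which were normalized separately, 28 of the 30 Uqcc1 probes were lower in congenic muscle. In 19 of them (63.3%) the groups did not overlap, with all congenic arrays lower, against 8.36% of all 13388 probes. The share of all probes with every congenic array higher was 8.19%.

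The Uqcc1 difference was smaller in the other tissues: -0.16 in adipose tissue, 0.05 in liver and -0.16 in brain, none past the threshold. The muscle change minus the mean of the other 3 was -0.42 (limma adjusted p = 0.0506), just outside the threshold. Set against adipose tissue alone, which shared the slide, the excess was -0.35 (limma adjusted p = 0.528). Neither test of a larger change in muscle passed the threshold. The first did in 4 of 9 alternative settings, and the second in the authors' deposited probe values (-0.51, limma adjusted p = 0.0174).

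Serinc3 read 11.68, 11.55 and 11.91 in B6 muscle and 10.87, 10.98 and 10.98 in congenic muscle. All 3 congenic arrays were below all 3 B6 arrays. The change was -0.77 ± 0.15 (SE, n = 3 per group; limma adjusted p = 0.00850), a 1.71-fold lower level. It was -0.79 without congenic replicate 3 (limma adjusted p = 0.0309), and the fit of the 6 muscle arrays gave a limma adjusted p of 0.0273. The call was lost without B6 replicate 3, the brightest array, where the change was -0.67 (limma adjusted p = 0.0769). Its differences within well rows A, B and C were -0.93, -0.68 and -0.70, with a limma adjusted p of 0.0269 when well row was a block.

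Of the 11 exon features of Serinc3, 10 were lower in congenic muscle, against 47.4% of all features. In 8 the groups did not overlap, with all congenic arrays lower, against 9.75% of all features. The largest change was at the fifth feature, an 81-base exon, which read 12.59, 12.02 and 12.39 in B6 and 10.53, 10.90 and 10.55 in congenic muscle. Its change was -1.68 ± 0.29 (SE, n = 3 per group; limma adjusted p = 0.00732). The tenth feature, a 226-base exon, read 11.85, 11.64 and 11.71 in B6 and 9.94, 10.44 and 10.22 in congenic muscle, a change of -1.53 ± 0.21 (SE, n = 3 per group; limma adjusted p = 0.00127).

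The Serinc3 features did not move equally. The first exon changed by -0.19 and the last, 2308 bases long, by -0.28, with overlapping groups in both. The third feature, 1635 bases with 14 probes from the separate transcript AK054306, covers the fourth feature, a 195-base exon of AK031101, together with sequence on both sides of it. It read 9.55, 10.26 and 10.11 in B6 and 10.02, 10.10 and 9.84 in congenic muscle, a change of 0.02 with overlapping groups. The exon inside it read 12.00, 11.49 and 11.47 in B6 and 10.32, 10.43 and 10.67 in congenic muscle, a change of -1.18 (limma adjusted p = 0.00732). In a test of each feature against the rest of its gene (limma diffSplice), the long feature was higher by 0.90 than the other Serinc3 features (adjusted p = 0.0460) and the 81-base exon differed from them by -0.96 (adjusted p = 0.0233).

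In adipose tissue Serinc3 was lower by a similar amount, -0.93 (limma adjusted p = 0.00173), in liver the change was -0.51 (limma adjusted p = 0.116) and in brain 0.25 (limma adjusted p = 0.594). The muscle change minus the adipose change was 0.16 ± 0.21 (SE, n = 3 per group; limma adjusted p = 0.995). Of the 44 Serinc3 probes in the authors' deposited values, 39 were lower in congenic muscle. In 26 of the 44 (59.1%) all congenic arrays were lower with no overlap, against 8.36% of all probes.

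**Figure D2:**
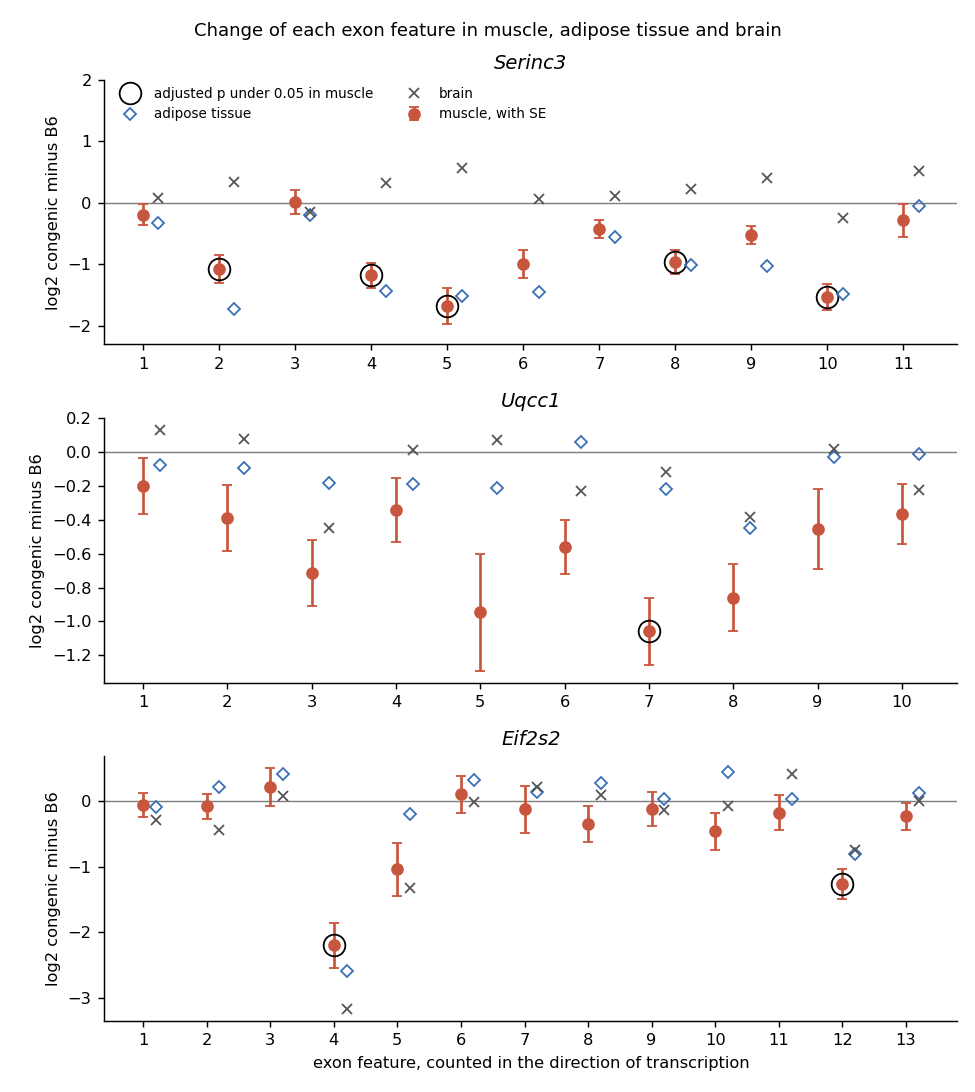
Log2 change, congenic minus B6 (y axis), of each exon feature of Serinc3, Uqcc1 and Eif2s2 in transcription order (x axis). Filled circles with SE are muscle, rings mark features with an adjusted p under 0.05 in muscle, diamonds are adipose tissue and crosses are brain. The 10 Uqcc1 features lie between -0.20 and -1.06 in muscle, the third Serinc3 feature lies at 0.02 among lower neighbours, and 1 Eif2s2 feature lies at -2.20 in muscle.

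None of the genes next in order passed the adjusted threshold. Nfs1, the cysteine desulfurase that supplies sulfur for iron-sulfur clusters, read 10.43, 10.44 and 10.46 in B6 and 10.08, 10.28 and 10.16 in congenic muscle. The groups did not overlap, and the change was -0.27 ± 0.07 (SE, n = 3 per group; limma adjusted p = 0.0732). Of its 14 features 13 were lower, the lowest at -0.53. In the authors' deposited probe values, summarised and fitted in the same way, Nfs1 changed by -0.43 and passed (limma adjusted p = 6.04e-04). Srxn1, sulfiredoxin, which reactivates oxidised peroxiredoxins, read 10.71, 10.51 and 10.60 against 9.70, 10.15 and 10.27. Its change was -0.57 ± 0.18 (SE, n = 3 per group; limma adjusted p = 0.265), and congenic replicate 1 was the lowest array. The 3 Srxn1 features changed by -0.76, -0.71 and -0.06.

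Mylk2 phosphorylates the regulatory light chain of fast muscle myosin. It read 11.41, 11.26 and 11.43 in B6 and 10.83, 11.05 and 11.10 in congenic muscle, with no overlap. The change was -0.38 ± 0.10 (SE, n = 3 per group; limma adjusted p = 0.115), or -0.43 without congenic replicate 3 (limma adjusted p = 0.100), and all 6 of its features were lower. In the authors' deposited probe values the Mylk2 change was larger, -0.70, and passed (limma adjusted p = 0.00255). In adipose tissue, where the gene read about 2 log2 units lower, the change was 0.06. Tti1, part of a complex that stabilises kinases of the PI3K-related family, read 9.87, 10.01 and 9.91 against 9.64, 9.52 and 9.59, a change of -0.35 ± 0.10 (SE, n = 3 per group; limma adjusted p = 0.115). Here 5 of 7 features were lower. In the authors' deposited probe values 12 of the 21 Tti1 probes were lower, and the groups of the gene value overlapped.

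The largest higher value with a p under the unadjusted threshold was at Znfx1, a helicase with zinc fingers that takes part in antiviral RNA sensing. It read 10.22, 10.62 and 10.59 in B6 and 10.85, 11.26 and 10.88 in congenic muscle, a change of 0.52 ± 0.13 (SE, n = 3 per group; limma adjusted p = 0.0607). The gene had a single feature, and the authors' deposited probe values gave the opposite sign, -0.21. Nxt1, a cofactor of mRNA export through the nuclear pore, read 10.81, 10.69 and 10.65 against 11.35, 11.09 and 10.81. Its groups overlapped at congenic replicate 3, and the change was 0.37 ± 0.12 (SE, n = 3 per group; limma adjusted p = 0.265). Without congenic replicate 3 it was 0.50 (limma adjusted p = 0.0446), and Nxt1 then joined Uqcc1 and Serinc3 as the third gene past the threshold, 0.88% of genes. Of the 2 Nxt1 features one changed by 0.74 and the other by -0.01, so the gene value rests on one of them.

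The other genes with an unadjusted p under 0.05 moved by at most 0.33 on the log2 scale. Lower in congenic muscle were AK039783 (-0.28), Rprd1b (-0.21), which binds the tail of RNA polymerase II, Samhd1 (-0.19), which breaks down deoxynucleotides, Stau1 (-0.18), which binds double-stranded RNA, and Polr3f (-0.16), a subunit of RNA polymerase III. Higher were BC039771 (0.33), 4930556L07Rik (0.24, but -0.0085 in the authors' deposited probe values), Zswim1 (0.15) and Manbal (0.15). Their limma adjusted p-values ran from 0.279 to 0.869. Rprd1b had 9 of 10 features lower, 7 of them with no overlap, while Stau1 had 11 of 20 lower. The 3 Manbal features changed by 0.50, 0.11 and 0.01. Of all features 47.4% were lower, and 9.75% were lower with no overlap.

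**Figure D3:**
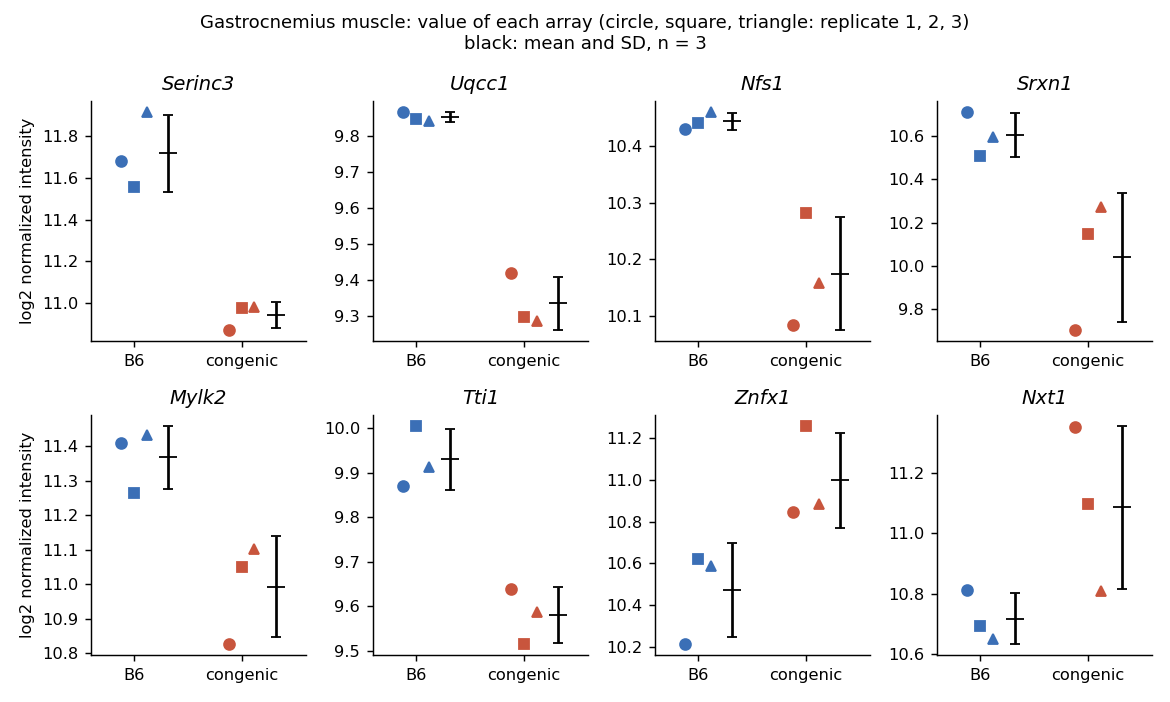
Log2 normalized intensity (y axis, own scale per panel) of 8 genes on each B6 and congenic muscle array (x axis), with circle, square and triangle for replicates 1 to 3 and black bars for the mean and SD (n = 3). Serinc3 and Uqcc1 passed the adjusted threshold, and the groups overlap in Nxt1 only among the 8.

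The seminal vesicle genes depended on congenic replicate 3. Svs4 changed by 1.004 with all arrays and by -0.10 without that array, Svs5 by 0.996 and -0.02, Svs6 by 0.97 and 0.20, and Svs2 by 0.68 and -0.09. None of these passed the threshold either way. The number of genes past the threshold was 2 with the array and 3 without it, and 17 against 20 genes (5.87%) had an unadjusted p under 0.05. In the fit of the 6 muscle arrays the count past the threshold was again 2 (0.587%), and 41 genes (12%) had an unadjusted p under 0.05.

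**Figure D4:**
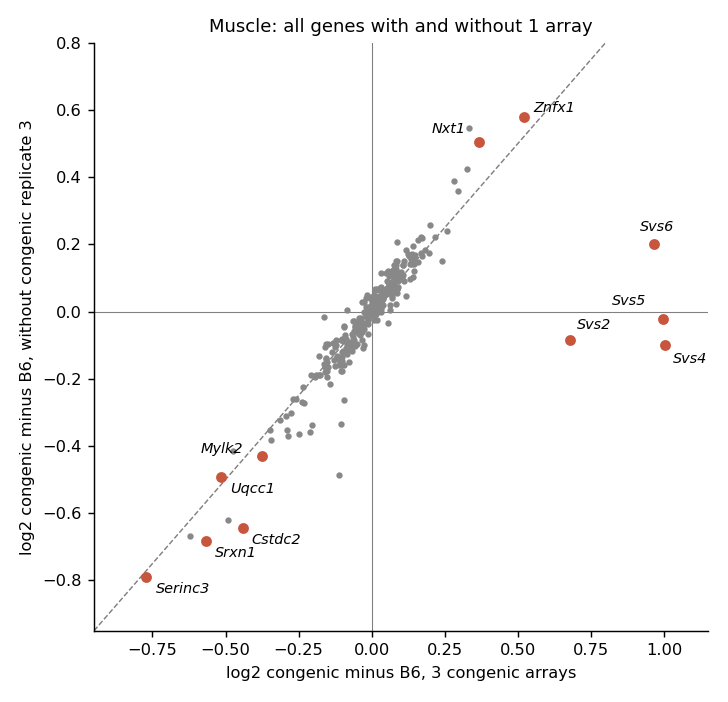
Log2 change, congenic minus B6, of the 341 genes with all 3 congenic arrays (x axis) and without congenic replicate 3 (y axis). Each point is a gene, and the dashed line marks equal values. Svs2, Svs4, Svs5 and Svs6 leave the line, with Svs4 at 1.004 and -0.10, while Serinc3 stays at -0.77 and -0.79.

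Exon by exon, 11 of 3099 features fell in congenic muscle (0.355%) and 0 rose. An unadjusted p under 0.05 was reached by 128 features (4.13%), 79 lower (2.55%) and 49 higher (1.58%). Of the 11 features, 5 belonged to Serinc3, 1 to Uqcc1 and 2 to Eif2s2. Napb, Rbm39 and Crnkl1 had 1 each. The gene values of Eif2s2, Napb, Rbm39 and Crnkl1 did not pass the threshold.

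Eif2s2 encodes the beta subunit of translation initiation factor eIF2, which brings the initiator tRNA to the ribosome. A 25-base feature of its transcript AK019156, measured by 2 probes, had the largest change among the 11. It read 12.12, 12.95 and 13.31 in B6 and 10.38, 10.69 and 10.72 in congenic muscle, a change of -2.20 ± 0.34 (SE, n = 3 per group; limma adjusted p = 0.00269). The same feature fell in the other tissues, with changes of -2.59 in adipose tissue, -2.75 in liver and -3.16 in brain, each past the threshold. Its bases lie inside a 179-base feature of another Eif2s2 transcript, which changed by 0.22 in muscle with overlapping groups. That longer feature changed by 0.41 in adipose tissue, 0.71 in liver and 0.07 in brain. The 591-base twelfth feature of Eif2s2 changed by -1.26 (limma adjusted p = 0.0105). The gene value changed by -0.31 ± 0.18 (SE, n = 3 per group; limma adjusted p = 0.869), and 11 of 13 features were lower.

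Napb encodes beta-SNAP, which takes apart the SNARE complexes of membrane fusion. Its 234-base feature read 10.18, 10.40 and 10.63 in B6 and 9.10, 9.23 and 9.58 in congenic muscle (limma adjusted p = 0.0288). Its change was -1.10 in muscle and -1.27 in brain, where it also passed, and 0.18 in adipose tissue. A 55-base exon of Rbm39, a splicing factor, changed by -1.05 (limma adjusted p = 0.0288). A 103-base exon of Crnkl1, a core spliceosome protein, changed by -1.28 (limma adjusted p = 0.0364), while the Crnkl1 gene value changed by -0.03. That exon changed by -0.99 in adipose tissue, -0.69 in liver and -0.85 in brain, none past the threshold.

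Of the 11 features, 10 were below 0 in adipose tissue, where 50.2% of all features were, 11 in liver, where 49.3% were, and 6 in brain, where 50% were. Past the threshold were 6 in adipose tissue, 3 in liver and 2 in brain, against 0.387%, 1.03% and 0.355% of all features. Features of one gene are not independent, and these came from few genes. Those in adipose tissue were the 5 Serinc3 features and the 25-base Eif2s2 feature. Those in liver were of Serinc3 and the same Eif2s2 feature, and those in brain were that feature and the one of Napb. The 5 Serinc3 features were all lower in adipose tissue and liver, and in brain 4 of them were above 0.

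**Figure D5:**
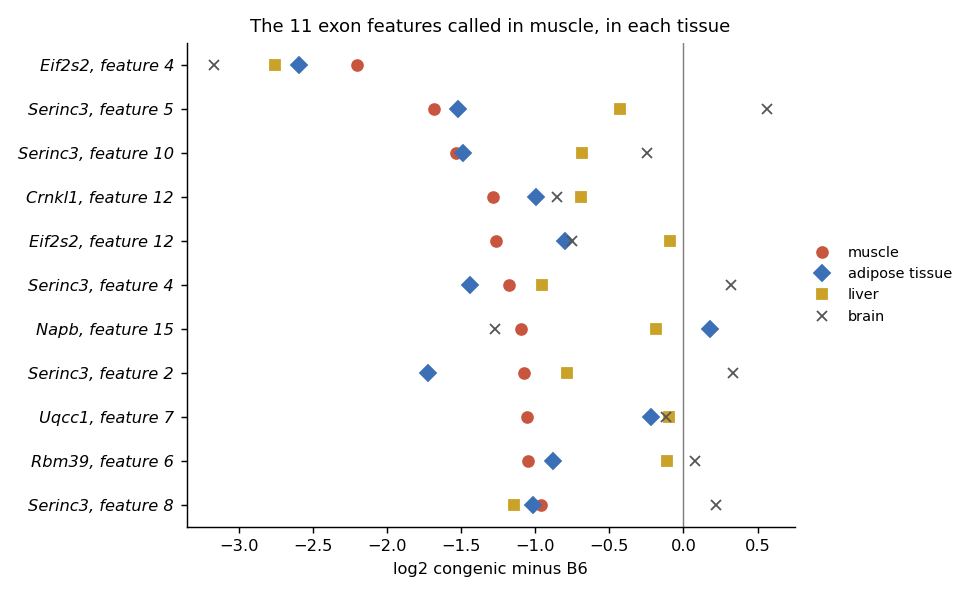
Log2 change, congenic minus B6 (x axis), of the 11 exon features past the threshold in muscle (y axis, numbered in transcription order within each gene), in the 4 tissues. The Eif2s2 feature 4 lies at -2.20 in muscle and -3.16 in brain, and the Uqcc1 feature 7 at -1.06 in muscle and -0.12 in brain.

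Without congenic replicate 3 the number of features past the threshold was 10 (0.323%). Of the Serinc3 features, 2 left the list, and a feature of Dzank1, 1242 bases long, entered it. That feature read 8.57, 8.51 and 8.44 in B6 and 9.62, 13.57 and 8.60 in congenic muscle, so its value rests on congenic replicate 2. It was also first in the test of each feature against the rest of its gene, at 2.06.

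That test found 9 of 3072 features (0.293%) that moved differently from the other features of their gene, 7 lower (0.228%) and 2 higher. It treats the features of a gene as independent, and a feature that moves shifts the rest the other way in its own comparison. Beside Dzank1, these were the 25-base Eif2s2 feature (-1.90) and 1 feature each of Ndrg3 (-1.18) and Snx5 (-1.27), a sorting nexin. Naa20 (-0.97), the catalytic subunit of an N-terminal acetyltransferase, and Lbp (-1.03), the lipopolysaccharide-binding protein, also had 1 each. Serinc3 had 2 and Crnkl1 had 1 (-1.27). The Naa20 feature, 122 bases long, read 8.68, 8.20 and 8.76 in B6 and 7.47, 7.73 and 7.27 in congenic muscle. It was lower in the other tissues as well, at -0.90 in adipose tissue, -0.59 in liver and -1.15 in brain. As whole genes, Serinc3, Dzank1, Eif2s2, Naa20 and Ndrg3 had unequal features by the F test, 5 of 314 genes (1.59%). Uqcc1 was not among them. The Dzank1 feature found by the test above is the one that rests on congenic replicate 2.

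The lists of related genes held few members past the threshold. Of the 9 measured genes of mitochondria and redox balance 1 fell, Uqcc1, and 7 of the 9 were below 0, where 43.7% of all genes were, with a median change of -0.03 against 0.01 for all genes. Tomm34, Ndufaf5 and Mgme1 lay at -0.03, -0.03 and -0.01. Among 8 membrane transport genes Serinc3 was the 1 that fell, and 5 of the 8 were above 0. Among 6 genes of muscle contraction and membrane 0 passed. Mylk2, described above, had the lowest change of the list, -0.38. Tnnc2 lay at 0.03 and Jph2, which joins the surface and calcium store membranes, at -0.03. Fitm2, which helps form lipid droplets, lay at -0.26 ± 0.14 (SE, n = 3 per group; limma adjusted p = 0.869).

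Of 13 genes of lipid, sugar and hormone metabolism 0 passed, and their median change was 0.02. Acss1 and Acss2, which make acetyl-CoA from acetate, changed by 0.14 and 0.06, and Pygb, a glycogen phosphorylase, by 0.09. Acss1 lay at -0.015 without congenic replicate 2 and Acss2 at -0.0013 without congenic replicate 1. Of 16 genes of RNA processing, export and translation 12 were below 0, where 43.7% of all genes were, with a median of -0.10, and 0 passed. The lists were chosen with earlier results of these data known, so such counts are descriptions only. Of 16 genes of vesicle traffic, autophagy and ubiquitin 11 were below 0, again beside 43.7% of all genes, with a median of -0.08. Among them were Chmp4b at -0.18 and Trpc4ap at -0.15. The 17 regulators of transcription had a median of 0.03 and the 11 cell division genes 0.02, with 0 past the threshold in either list.

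Markers of other cell types showed no member past the threshold. The 4 adipocyte genes had a median change of 0.03, with Lep, leptin, at -0.10 and Adig at 0.00. The 6 immune cell genes were all below 0, where 43.7% of all genes were, from -0.25 for B2m to -0.06 for Bpi. Without B6 replicate 3, however, B2m lay at 0.07 and the other 5 between -0.14 and -0.03. The immune list had a summed level of 12.86 to 13.40 in B6 and 12.83 to 12.99 in congenic muscle. The 6 endothelial genes had a median of -0.03, with Procr at -0.13 and Sdc4 at 0.26, or -0.04 in the authors' deposited probe values. The 7 neuronal genes had a median of 0.03 and the 4 hepatocyte genes -0.05. Fewer cells of a type and less RNA per cell cannot be told apart in these whole-tissue samples.

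No gene passed the threshold for a difference between the muscle change and the adipose change (0%, 13 of 341 genes or 3.81% with an unadjusted limma p under 0.05). The same held for muscle against the mean of the other 3 tissues (0%, 21 genes or 6.16% with an unadjusted limma p under 0.05), where Uqcc1 came first. Along chromosome 2 in windows of 5 Mb, the genes with an unadjusted p under 0.05 were 6 of 74 (8.11%) between 155 and 160 Mb, Uqcc1 included. They were 2 of 68 (2.94%) between 160 and 165 Mb, Serinc3 included, and 3 of 97 (3.09%) between 150 and 155 Mb. The windows that start at 140, 145 and 165 Mb held 2 of 31 (6.45%), 2 of 33 (6.06%) and 2 of 27 (7.41%). Over all genes the share was 4.99%. The median change of a window with more than 20 genes lay between -0.03 and 0.03.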

How the data were processed

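The 24 mouse samples were hybridised to custom NimbleGen slides of 12 wells. Per the labels' protocols, total RNA was extracted with TRIzol and RNeasy and copied into biotin-labelled cRNA. The series design text states 3 biological replicates per strain and tissue. Each deposited per-sample file gives linear scanner intensity, which the authors averaged over the 2 to 14 probes of every exon. The authors' deposited value table holds normalized intensity per probe. The submitters' processing notes name RMA, without settings.

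Background was corrected by normexp with offset 50, followed by quantile normalization of all 24 arrays and log2. The offset pulls low values together, so fold changes of dim exons are understated. Identical exon rows were averaged to 3099 features, and median polish gave 341 genes, 301 with a symbol in the platform annotation (updated by gene ID through RefSeq) and 40 transcripts without one. The genotype comparison used limma 3.58.1 (R 4.3.3), with 1 mean for each of 8 groups, eBayes and Benjamini-Hochberg adjustment at 0.05. Single features were set against the rest of their gene with diffSplice. The scripts were tested on simulated data. Python 3.11.15 and matplotlib 3.10.9 drew the figures. Promoter sequences are RefSeq, GRCm38.p6, and both symbols matched.

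Named genes were those past 0.05 in the muscle comparison with all arrays, without congenic replicate 3 or in the 6 muscle arrays alone, up to 10 higher and 10 lower with an unadjusted p under 0.05, every exon feature past 0.05, and up to 4 members per list. Markers and features that moved unequally were also named. The genes and lists were chosen with earlier results of these data known.

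Scanner files and value table columns were compared by correlation of their deviations. All 6 muscle files matched a column of their own group best, but only B6 replicate 2 matched the column of its own number. The file of congenic replicate 3 matched the column labelled congenic replicate 1, which carries the high Svs genes there. Replicate numbers here are those of the per-sample files. Alternatives covered background correction, normalization, the summary, the arrays used, blocks and leaving out each array.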

Additional observations from a re-analysis of the deposited data

How the results depend on the processing

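The call of Uqcc1 held under all 12 alternative settings and under all 24 fits that left out 1 array, with changes from -0.60 to -0.40 and from -0.56 to -0.49. Serinc3 kept its direction throughout, and its change of -0.77 lost the call with a replicate block (adjusted p = 0.0701) and at -0.67 without B6 replicate 3 (adjusted p = 0.0769). Its change ran from -0.85 to -0.67 with 1 array left out. The number of genes past the threshold in muscle, 2 as reported, was 5 without background correction, 4 without it and with median scaling, 1 with a replicate block, 6 with the mean of the exon features, 4 in the authors' value table and 3 in the 12 arrays of adipose tissue and muscle. It ran from 1 to 4 when 1 array was left out. Beside Uqcc1 and Serinc3, Mylk2 and Nfs1 passed in the value table (-0.70 and -0.43) and without background correction. Srxn1 passed in 2 of 12 settings, one of them the 12 arrays (-0.66), and Znfx1 in 3 settings and in 5 fits with 1 array left out. The muscle change minus the adipose change gave 3 genes in a fit of the 12 arrays of both tissues (Zfp937, Defb29 and Adig), 2 in the value table (Uqcc1 and Cstdc2) and 0 to 1 with 1 array left out, where Apmap passed without congenic adipose replicate 1. Muscle minus the mean of the other tissues gave 1 gene, Uqcc1, without background correction, with limma's trend and robust options and with the mean of the exon features, and 3 in the value table (Uqcc1, Nfs1 and Mylk2). It gave 0 to 1 with 1 array left out.

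The number of exon features past the threshold, 11 as reported, was 22 in the 12 arrays, 23 in the 6 muscle arrays, 5 with a replicate block and 2 to 15 with 1 array left out. Features set against the rest of their gene, 9 as reported, came to 38, 58 and 5 in the same order, and to 2 to 11. Directions turned for Znfx1 (-0.21), 4930556L07Rik (-0.0085) and Sdc4 (-0.037) in the value table, for Mapre1 (-0.11) with dim features left out, for Acss1 (-0.015, range to 0.284) without congenic replicate 2, for Acss2 (-0.0013, range to 0.0935) without congenic replicate 1 and for Svs5 (-0.023, range to 1.53) without congenic replicate 3, where the range is over the fits with 1 array left out. The cause was not tested. Replicate numbers did not pair the arrays: the correlation of deviations between same-numbered arrays was -0.06, -0.13 and 0.18. Between arrays of the same well row it was 0.18, 0.13 and 0.35 in rows A, B and C, and with well row as a block Uqcc1 and Serinc3 passed as before (adjusted p = 0.00295 and 0.0269). The quantile normalization of log2 values, the fits without an array of another tissue and the immune genes without B6 replicate 3 were added after seeing the data, and arrays left out of a fit stayed in the normalization. With 3 arrays per group, the main p-values rest on a spread pooled over the 8 groups of all tissues. Those of the fit of the 6 muscle arrays rest on the spread within muscle.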
